A study of Mus musculus with 6 samples.

Results

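The genes for ribosomal proteins and for translation elongation factors were examined in ventricles of single mouse embryos at stage E12.5. Members were taken by symbol: Rpl or Rps followed by a digit, Rplp0 to Rplp2, Rpsa, and every symbol beginning with Eef, without the Rps6k kinases and the genes named as pseudogenes with -ps. The annotation holds 107 such genes, of which 97 were measured among the 13843 genes of the table. They were 35 genes of the small (40S) ribosomal subunit, 49 of the large (60S) subunit including 3 of its stalk, 12 elongation factor genes and Rps19bp1. The name elongation factor genes stands here for all 12 Eef symbols. Among them Eef1akmt1, Eef1akmt2, Eef1e1, Eef2k and Eef2kmt encode no elongation factor. Another 10 genes that meet the rule, Rpl24 and Rps27 among them, were not analysed here, and why they have no row was not tested. Every gene in the table reached at least 1.01 in 3 of the 6 libraries, all 97 members included. Of the 97, 4 are annotated as processed pseudogenes (Rps3a2, Rps3a3, Rps4l and Rpl37rt).

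All embryos were of C57BL/6 background and carried floxed alleles at both copies of Vhl, whose product marks hypoxia-inducible factors for degradation. The 3 controls were Vhl flox/flox with Nkx2.5 +/+, and the 3 embryos labelled knockout were Vhl flox/flox with Nkx2.5 Cre/+, in which Cre recombinase is made from 1 Nkx2-5 allele in heart progenitors. The groups therefore differed by loss of Vhl and by the Cre allele together, and the 2 cannot be told apart. Control 1 and knockout 1 were littermates, as were control 2 and knockout 2. Control 3 and knockout 3 came from 2 further litters by the sample labels, whereas the series description counts 3 litters in all. Because each library is 1 embryo, p-values measure the spread between these embryos.

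Ribosomal proteins are made in nearly equal numbers, since each ribosome holds 1 copy of most of them, and their mRNAs are among the most abundant of any growing cell. Their translation, and that of elongation factor mRNAs, is controlled by the kinase mTORC1 through a run of pyrimidines at the very start of the mRNA. Elongation itself needs eEF1A, which brings aminoacyl-tRNA to the ribosome, eEF1B, which reloads eEF1A with GTP, and eEF2, which moves the ribosome along. Mammals have 2 genes for eEF1A: Eef1a1 is active in almost all cells, and Eef1a2 takes its place in heart muscle, skeletal muscle and neurons as they mature. Retrotransposition has left many processed pseudogenes of ribosomal protein genes in the mouse genome, and a short read from such a gene may match several places equally well.

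How well a 75-base read can tell copies apart is seen in the sequences themselves. The following stretches are 75 bases of coding sequence and the matching stretch of the other copy, taken from GENCODE M21 transcripts on GRCm38, with every base that differs within a pair in capitals. Eef1a1 (chromosome 9, 78478449 to 78489151) and Eef1a2 (chromosome 2, 181147653 to 181157014) are shown from coding base 1 because their ratio is measured here.
Eef1a1: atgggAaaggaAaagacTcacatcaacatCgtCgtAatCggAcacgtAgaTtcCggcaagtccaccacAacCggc
Eef1a2: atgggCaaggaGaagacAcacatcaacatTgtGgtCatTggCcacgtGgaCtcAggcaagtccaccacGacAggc
Rps6 (chromosome 4, 86854660 to 86857412) and the pseudogene Rps6-ps4 (chromosome 2, 75191073 to 75191822) are shown from coding base 1 as a pair with no difference at all.
Rps6: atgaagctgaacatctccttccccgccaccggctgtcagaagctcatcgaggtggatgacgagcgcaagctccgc
Rps6-ps4: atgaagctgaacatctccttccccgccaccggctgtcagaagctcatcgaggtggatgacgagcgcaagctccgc
Rpl29 (chromosome 9, 106429454 to 106431568) and Gm13841 (chromosome 5, 115801677 to 115802159) are shown from coding base 35 to 109, since the values of both differed widely from library to library.
Rpl29: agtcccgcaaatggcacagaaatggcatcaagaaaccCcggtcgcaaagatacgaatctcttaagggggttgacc
Gm13841: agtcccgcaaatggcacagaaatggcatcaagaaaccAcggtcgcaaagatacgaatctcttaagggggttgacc
Rps7 (chromosome 12, 28630854 to 28635953) and Gm6472 (chromosome X, 152909505 to 152910155), from coding base 1, are another such pair.
Rps7: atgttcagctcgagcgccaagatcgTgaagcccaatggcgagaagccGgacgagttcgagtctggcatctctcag
Gm6472: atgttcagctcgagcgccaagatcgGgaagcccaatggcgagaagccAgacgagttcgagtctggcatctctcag

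The 2 eEF1A genes differ at 13 of these 75 bases and at 268 of 1387 aligned coding bases (80.7% identity), so their reads can be separated. Rps6 and Rps6-ps4 are identical over all 750 coding bases. Rpl29 and Gm13841 differ at 3 of 483 bases, Rps7 and Gm6472 at 3 of 585, Rplp0 and Gm8730 at 12 of 954, and Rps2 and Rps2-ps10 at 5 of 882.

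Most ribosomal protein genes shared much of their sequence in this way, and most elongation factor genes little. The measure used was the share of all 75-base windows of a member's coding sequence (of its transcript where no coding sequence is annotated) that occur letter for letter in a transcript of another gene. The median over the 84 ribosomal protein genes was 83.2%. For 24 of them every window occurred elsewhere, while for 11 the share was under 25%. Among the 12 elongation factor genes, Eef1g (79.4%) and Eef1a1 (51.9%) alone were above 25%. No window was shared in 7 members, among them Eef1a2, Eef1akmt1, Eef1akmt2 and Eef1e1. Matched pseudogenes were sought among other genes annotated or named as pseudogenes and among coding genes with Gm numbers. Of 1173 that matched a member at 90% identity or more over at least 150 bases, 47 were in the table. They belonged to 40 members. Gm2000, Gm3550, Gm45713, Rpl10-ps3 and Rps12-ps3 among them are annotated as protein-coding, and Gm45713 overlaps Rpl13a on chromosome 7. Values of a member and of its pseudogene are therefore uncertain one by one, and the sum of the pair is given beside them.

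**Figure D1:**
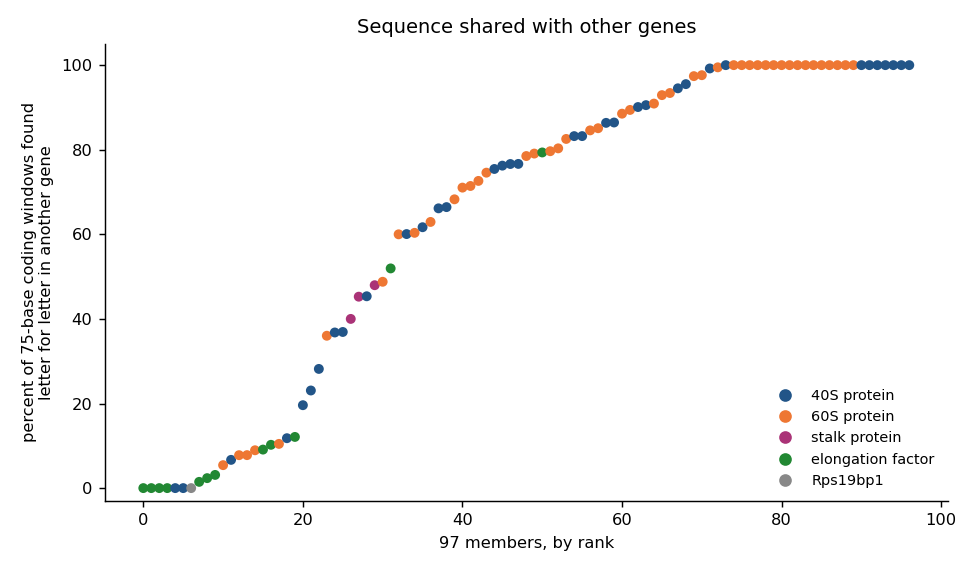
Each point is 1 of the 97 members, ordered along the horizontal axis by the percent of its 75-base coding windows that are found unchanged in a transcript of another gene (vertical axis). The 24 ribosomal protein genes at 100% form the plateau on the right, and 7 members, 4 of them with symbols beginning with Eef, lie at 0.

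The targeted gene was read first as a check of the labels. Vhl gave 33.7, 36.3 and 38.6 in the controls, 11.1 in knockout 1 and 10.3 in knockout 2, but the library labelled knockout 3 had 34.5, inside the control range. All values are the deposited ones, reads divided by 1 factor per library, which comes close to CPM. Because its Vhl value goes against its label, the library labelled knockout 3 is shown apart, and the main comparison is of knockouts 1 and 2, called the 2 knockouts below, with the 3 controls. Nkx2-5 stood at 75.7, 79.2 and 68.6 in the controls, at 51.6 and 66.7 in the 2 knockouts, with 80.3 in the library labelled knockout 3. Libraries held between 9067805 and 12592902 reads. As to the tissue label, all 10 markers of ventricular muscle were measured, with a summed value of 37038 to 45397 in the controls and of 43702 and 38635 in the 2 knockouts.

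Most ribosomal protein mRNAs lay slightly higher in the 2 knockouts than in the controls, and none of these differences passed the test gene by gene. The log2 fold change was above 0 in 78 of 84 ribosomal protein genes, beside 48.2% of all genes, with a median of 0.15 beside -0.01 over all genes. These genes shifted together within a library, so the 84 are not separate results. In controls 1 to 3, 10, 65 and 58 of them lay above their control mean on the log2 scale. The count was 77 and 80 in the 2 knockouts, with 57 in the library labelled knockout 3. The median deviation had an SD of 0.063 over the controls. In 53 of the 84 both knockouts lay above all 3 controls, beside 18.1% of all genes and 22.8% of genes with a mean value of at least 100, and in 2 of the 84 both lay below, beside 17% of all genes. By limma with Benjamini-Hochberg adjustment over all 13843 genes, 0 of the 97 members were higher at an adjusted p under 0.05, where 3.01% of all genes were, and 1 was lower, Eef1a2, where 1.24% were. At an unadjusted p under 0.05 there were 28 of the 84 ribosomal protein genes, beside 17.8% of all genes. The count of higher members depended on the test. On recovered reads, edgeR called 0 higher and 1 lower (2.94% and 1.18% of all genes), and DESeq2 called 10 higher and 1 lower (4% and 1.98%). Limma called 1 higher and 1 lower among genes with a mean of at least 5 (3.69% and 1.61%), and likewise with scaling on other genes (3.1% and 1.15%). With litter as a block, 4 members were called higher and 1 lower (4.92% and 3.21%). That fit uses litters 1 and 2 alone, so control 3 is left out. In each of these fits the lower member was Eef1a2.

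The shift was also seen in the share of all reads. Ribosomal protein genes took 2.77%, 3.03% and 3.06% of reads in the controls 1 to 3, and 3.23% and 3.20% in the 2 knockouts. Counted with their matched pseudogenes, the shares were 3.43%, 3.71% and 3.74% in the controls and 4.03% and 3.95% in the 2 knockouts. The 2 knockouts lay above the 3 controls on both counts, while the library labelled knockout 3, at 2.98% and 3.67%, lay among the controls. In that library, 58 of the 84 genes were inside the control range. The lowest share belonged to control 1, which was also the library with the fewest reads, and the highest to knockout 1, which had the most. The part of depth in this order was not tested. Without control 1 the median log2 fold change was 0.12, and without knockout 1 also 0.12. The summed 40S values, as deposited and not per length, were 0.771, 0.777 and 0.771 of the summed 60S values in the controls. The ratio was 0.769 in knockout 1 and 0.791 in knockout 2, on either side of the control range. In the library labelled knockout 3 it was 0.775. In a bulk sample, a larger share of reads from these genes may reflect more cells of a type that expresses them or more mRNA per cell, and the 2 cannot be told apart.

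**Figure D2:**
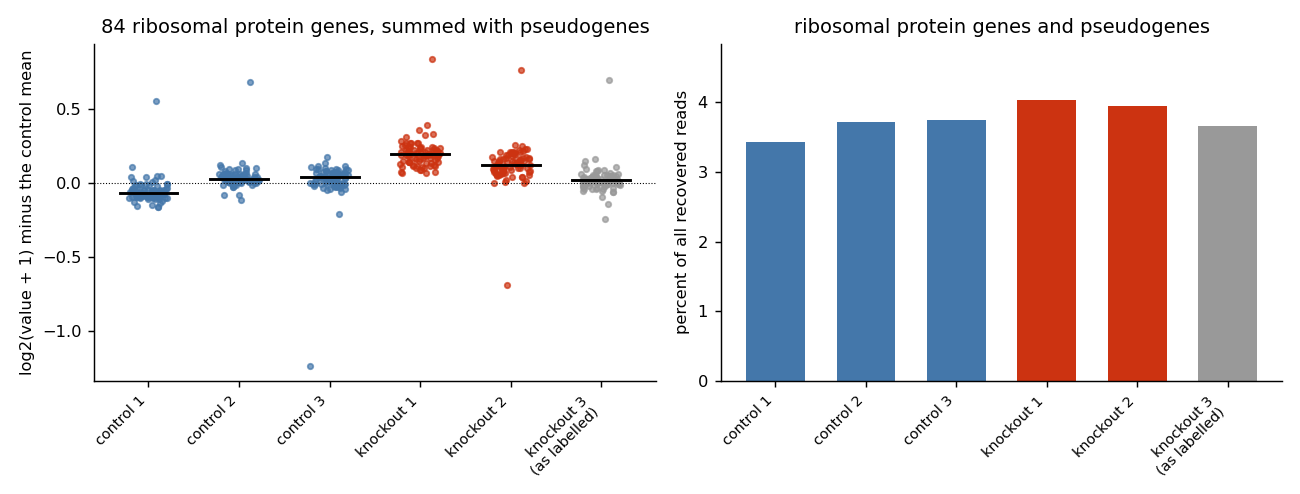
Left, each point is 1 of 84 ribosomal protein genes summed with its matched pseudogenes, as log2(value + 1) minus the mean of the 3 controls, and the black bar is the median of that library. Right, the percent of all recovered reads in these genes and pseudogenes, where knockouts 1 and 2 at 4.03% and 3.95% stand above the controls at 3.43% to 3.74% and the library labelled knockout 3 at 3.67%.

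Among the 35 genes of the 40S subunit, 32 had a log2 fold change above 0, and the median was 0.16. Both knockouts lay above all controls in 25, beside 18.1% of all genes. The smallest adjusted p of any ribosomal protein gene belonged to Rps19 (ENSMUSG00000040952, chromosome 7, 24884371 to 24889806), a protein needed to mature the 40S subunit and the gene most often mutated in Diamond-Blackfan anaemia. It stood at 320, 329 and 321 in the controls, 414 and 386 in the 2 knockouts, with 336 in the library labelled knockout 3. The groups did not overlap, and the log2 fold change was 0.31 ± 0.07 (SE), which just missed the limma threshold at an adjusted p of 0.053. Rps16, whose tail contacts the tRNA in the P site, gave 349, 356 and 303 in the controls and 418 and 440.5 in the 2 knockouts (log2 0.36 ± 0.09, limma adjusted p = 0.073), with 321 in the library labelled knockout 3.

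None of the coding windows of Rps3 occurs in another gene. This protein, which lines the entry of the mRNA channel, gave 620.4, 649 and 655 in the controls, 732 and 708 in the 2 knockouts, with 643 in the library labelled knockout 3. The 2 knockouts lay above all controls, by 0.17 ± 0.07 on the log2 scale, and the gene did not pass by limma (adjusted p = 0.30). It was named after its values were seen. The 11 ribosomal protein genes with under 25% of windows shared all had log2 fold changes above 0, with a median of 0.17. Both knockouts lay above all controls in 7 of them, beside 18.1% of all genes. The part of read sharing in the shift was not tested.

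The largest fold change of the 40S group was that of Rps13, at 119, 182 and 185 in the controls, 216 and 203 in the 2 knockouts, with 186 in the library labelled knockout 3. Control 1 alone was low, and the log2 fold change was 0.40 ± 0.18 (limma adjusted p = 0.30). Summed with its pseudogene, Rps13 went from 273, 296 and 291 to 348 and 316, a log2 fold change of 0.21. With litter as a block the gene passed (limma adjusted p = 0.032, log2 0.50), as did Rps12 (0.027, log2 0.35 against 0.27 without the block). Rps12 stood at 260, 271 and 308 in the controls and at 345 and 330 in the 2 knockouts. The block fit leaves out control 3, the highest control in both genes. Rps4x, the X-linked gene with the most reads of the 40S group (not per length), stood at 899.9, 978 and 1008 in the controls and at 1042 and 994 in the 2 knockouts, so its groups overlapped. Rpsa, also known as the laminin receptor, gave 873, 911 and 921 in the controls, 1039 and 1009 in the 2 knockouts, with 873 in the library labelled knockout 3 (log2 0.18 ± 0.08, limma adjusted p = 0.28).

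Among the 46 genes of the 60S subunit outside the stalk, 44 had a log2 fold change above 0, with a median of 0.15. Both knockouts lay above all controls in 28, beside 18.1% of all genes. Rpl4, a core protein of the exit tunnel and the ribosomal protein gene with the most reads (not per length), stood at 1143, 1240 and 1268 in the controls and at 1289 and 1266 in the 2 knockouts, so the groups overlapped. Rpl3, which shapes the peptidyl transferase centre, was at 894, 969 and 961 in the controls and at 1088 and 1024 in the 2 knockouts (log2 0.17 ± 0.08, limma adjusted p = 0.37). Rpl36 (chromosome 17, 56613416 to 56614243) was at 147, 142 and 139 in the controls, 187 and 164 in the 2 knockouts, with 142 in the library labelled knockout 3. Its groups did not overlap, and at log2 0.29 ± 0.08 it had the smallest adjusted p of the 60S group (limma, 0.091). Rpl10, the protein that completes the 60S subunit before it joins the 40S, was at 491, 608 and 484 in the controls and at 656 and 634 in the 2 knockouts. Its log2 fold change was 0.30 ± 0.11, and 0.13 once summed with its pseudogene, where the groups overlapped.

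Rpl28, another 60S protein, passed when litter was a block (adjusted p = 0.023) and not otherwise. It stood at 80.5, 103 and 111 in the controls, 116 and 123 in the 2 knockouts, with 94.04 in the library labelled knockout 3. Control 3, the highest of the controls, is left out of the block fit. The 10 members that DESeq2 called higher included Rps16, Rps19, Rpsa, Rpl13a and Rpl36, with log2 fold changes of 0.19 in Rpsa to 0.35 in Rps16. In limma these 10 had adjusted p-values between 0.053 in Rps19 and 0.28 in Rpsa.

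The stalk, where elongation factors bind, is built of Rplp0, Rplp1 and Rplp2. The values of Rplp1 were 509.6, 544 and 515 in the controls and 565 and 537 in the 2 knockouts, and those of Rplp2 were 235, 281 and 255 in the controls and 277 and 288 in the 2 knockouts. Both genes overlapped between groups. Rplp0 is the base of the stalk, and its log2 fold change of -0.15 ± 0.13 came from 1 library: it stood at 886, 958 and 947 in the controls, at 725 in knockout 1 and 975 in knockout 2, with 689 in the library labelled knockout 3.

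There were 6 members of the ribosomal protein set with log2 fold changes below 0, and 5 of them changed sign when reads of matched pseudogenes were added. They were Rps7 (-0.29), Rpl34 (-0.26), Rplp0 (-0.15), Rps2 (-0.13), Rpl5 (-0.13) and Rps6 (-0.08), and none of them passed by limma. After summing, Rps7 was at 0.10, Rplp0 at 0.07, Rps2 at 0.13, Rpl5 at 0.16 and Rps6 at 0.23. Rpl34 has no matched pseudogene in the table, and its value was set by knockout 2: it stood at 243, 271 and 267 in the controls, at 292 in knockout 1, at 161 in knockout 2, with 258 in the library labelled knockout 3. Without knockout 2 its log2 fold change was 0.17.

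The values of such pairs are given here library by library. Rpl29, a small 60S protein, stood at 177, 193 and 338 in the controls, 399.6 and 199 in the 2 knockouts, with 352 in the library labelled knockout 3. Gm13841, 3 coding bases apart, stood at 158, 167 and 0.10 in the controls, 6.38 and 178 in the 2 knockouts, with 0.27 in the library labelled knockout 3. Where the pseudogene was high the gene was low, in 3 of 6 libraries, and the sums were 336, 361 and 339 in the controls, 407 and 378 in the 2 knockouts and 353 in the library labelled knockout 3. Over the controls, Rpl29 alone had the largest SD of any ribosomal protein gene as deposited (0.51 on the log2 scale).

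In control 1 and knockout 1, Rps7 was low where Gm6472 was high. Rps7, a 40S protein, stood at 237, 361 and 359 in the controls and at 171 and 384 in the 2 knockouts, and Gm6472 at 279, 179.6 and 190.1 in the controls and at 418 and 175 in the 2 knockouts. Their sums, with 1 further pseudogene, were 517, 541 and 552 in the controls and 591 and 561 in the 2 knockouts, which did not overlap. For Rplp0, the pseudogenes Gm8730 and Gm9625 stood at 373 and 93.3 in knockout 1 and at 355, with 75.1 in the library labelled knockout 3, against 181 to 188 and 33.1 to 37.6 in the controls. These are the 2 libraries in which Rplp0 itself was low, and its sums were 1116, 1185 and 1168 in the controls, 1211 and 1218 in the 2 knockouts and 1139 in the library labelled knockout 3.

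Rps2, which sits at the mRNA entry site, was 1 of 2 ribosomal protein genes with both knockouts below all controls. It stood at 562, 625 and 563 in the controls, 533 and 530.3 in the 2 knockouts, with 605 in the library labelled knockout 3. Rps2-ps10, an annotated pseudogene on chromosome 18 that differs from it at 5 of 882 coding bases, stood at 0, 1.43 and 0 in the controls (0, 17 and 0 reads), at 97.6 and 120.0 in the 2 knockouts, with 0.09 in the library labelled knockout 3. The sums of the pair were 562, 626 and 563 in the controls and 630.3 and 650.4 in the 2 knockouts, so that on the sum both knockouts lay above all controls. Rps2 lies on chromosome 17, 2.12 Mb from Nkx2-5, the gene that carries Cre. Whether these reads come from an expressed Rps2-ps10 or from Rps2 with changed bases was not tested, since reads were not used here.

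**Figure D3:**
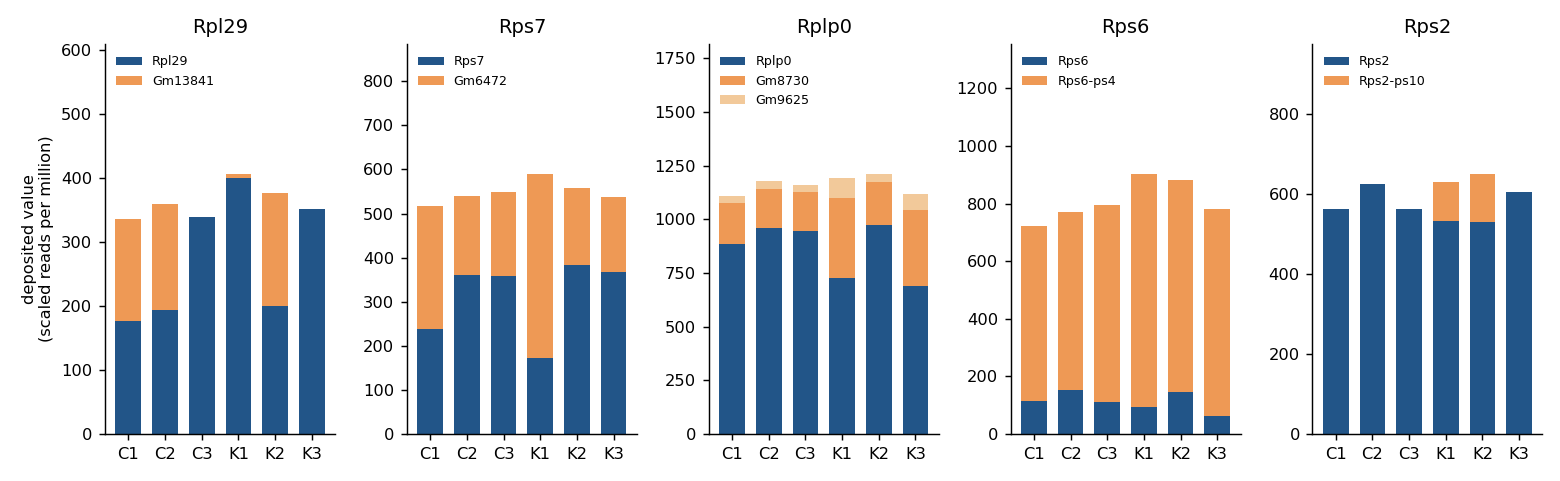
Stacked bars give the deposited value of 5 ribosomal protein genes (blue) and of their closest matched pseudogenes (orange) in the controls (C1 to C3), knockouts 1 and 2 (K1, K2) and the library labelled knockout 3 (K3). In Rpl29, Rps7 and Rplp0 the division between gene and pseudogene changes from library to library while the total varies less, and Rps2-ps10 is visible in K1 and K2 alone.

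In 10 ribosomal protein genes the matched pseudogenes held over 50% of the joint value: Rpl5 (93.5%), Rpl31 (93.1%), Rpl12 (92.8%), Rpl27 (89.8%), Rpl10a (86.8%), Rps6 (86.1%), Rpl27a (84.9%), Rpl15, Rps23 and Rpl28. As deposited, both knockouts lay above all controls in 2 of these 10, and as sums in all 10, beside 18.1% of all genes as deposited. Rps6, the substrate of S6 kinase in the mTORC1 pathway, stood at 113, 151 and 109.7 in the controls and at 93.3 and 146 in the 2 knockouts, whereas its sums were 724, 771 and 796 in the controls, 903 and 882 in the 2 knockouts, with 781 in the library labelled knockout 3. Rpl5, which carries 5S rRNA into the 60S subunit, stood at 57.9, 59.8 and 66.9 in the controls and at 54.96 and 57.2 in the 2 knockouts, and its sums were 834, 879 and 953 in the controls and 998 and 982 in the 2 knockouts.

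Over all 84 ribosomal protein genes, summing put 83 log2 fold changes above 0 and left 64 genes with both knockouts above all controls, 0 with both below, beside 18.1% and 17% of all genes as deposited. The quartiles went from 0.09 and 0.19 as deposited to 0.12 and 0.19, and 0 of the sums passed by limma, with 33 at an unadjusted p under 0.05, beside 17.8% of all genes. The nearest was again Rps19, with an adjusted p of 0.0502. One sum stood apart: Rpl27 with Gm11518 was at 242, 265 and 69.7 in the controls and at 295 and 280 in the 2 knockouts, because Gm11518 was at 50.3 in control 3 and at 218 and 238 in the other controls. That fold change of 0.80 ± 0.50 rests on control 3. The 45 genes without a matched pseudogene in the table gave a median of 0.14, and 44 of them were above 0, the exception being Rpl34. Members were not matched to each other, so the 45 include Rps3a2, Rps3a3, Rps4l and Rpl37rt, themselves annotated as pseudogenes. They also include Rps3a1, of whose coding windows 75.5% occur in an annotated pseudogene.

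**Figure D4:**
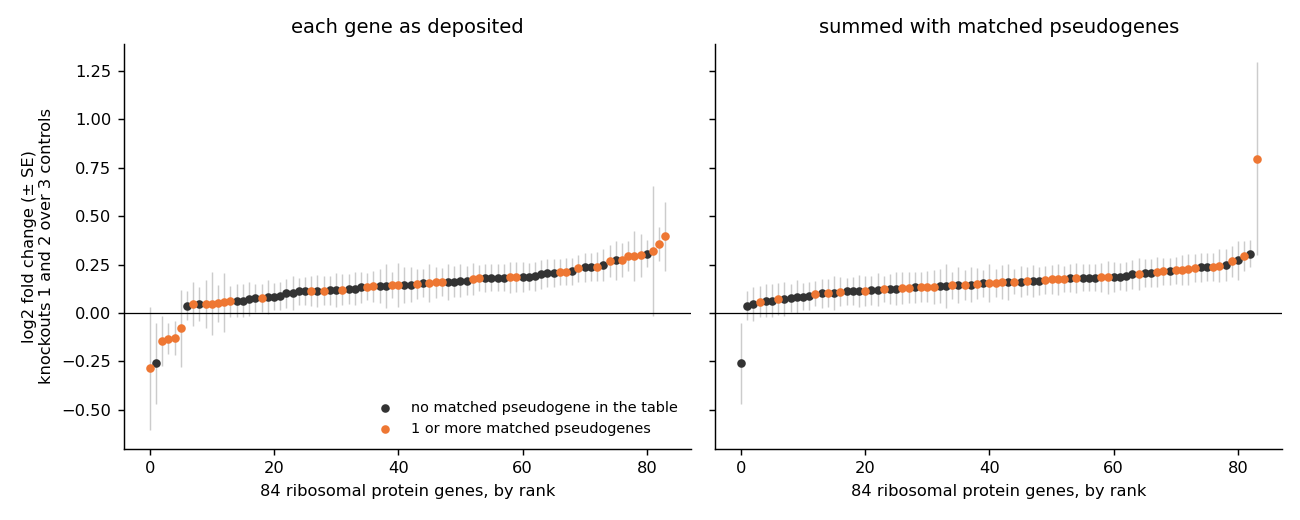
Log2 fold change of knockouts 1 and 2 over the 3 controls (points, with SE as bars) for 84 ribosomal protein genes in order of size, as deposited on the left and summed with matched pseudogenes on the right. Of the 6 genes below 0 on the left only Rpl34 is below 0 on the right, and the single high point on the right is Rpl27 with Gm11518.

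Paralog pairs of ribosomal proteins gave ratios within a library, which library scaling does not touch. With the eEF1A pair, 5 ratios were compared. Rpl22l1, a regulated copy of the RNA-binding 60S protein Rpl22, stood at 33.9%, 29.5% and 34.6% of Rpl22 in the controls, at 38.6% and 37.7% in the 2 knockouts, and at 33.9% in the library labelled knockout 3. Both knockouts lay above the controls, and the exact two-sided permutation p of 0.2 is the smallest that 3 against 2 can give (0.33 after Benjamini-Hochberg adjustment over the 5 ratios). Rpl22l1 itself gave 85.4, 85.9 and 103 in the controls and 115 and 106 in the 2 knockouts. It passed only with litter as a block (limma adjusted p = 0.023, against 0.21 by limma without the block). The block fit leaves out control 3, its highest control. The ratio of Rpl36al to Rpl36a was 54.9%, 56.3% and 50.9% in the controls and 57.7% in each of knockouts 1 and 2 (exact permutation p = 0.2). That of Rpl7l1 to Rpl7 was 9.50% ± 0.88 (SD, n = 3) in the controls and 9.58% and 9.34% in the 2 knockouts. That of Rps4l to Rps4x was 7.52% ± 1.26 (SD, n = 3) and 7.22% and 8.32%. These last 2 overlapped between groups (exact permutation p = 1 for each). All coding windows of Rpl36al and Rpl36a occur in another gene, as do 74.6% of those of Rpl22l1 and 8.9% of those of Rpl22. The part of read sharing in these ratios was not tested. Rps27l, the paralog of Rps27, was at 72.4, 68.6 and 77.6 in the controls and at 79.6 and 72.8 in the 2 knockouts, while Rps27, Rpl3l, Rpl10l and Rpl39l were not analysed here.

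Of the 12 elongation factor genes, 7 had log2 fold changes above 0, with a median of 0.02, and Eef1a2 was the only 1 of the 97 members past the limma threshold. Eef1a2 (ENSMUSG00000016349) stood at 98.0, 110 and 93.1 in the controls, at 53.4 and 60.02 in the 2 knockouts, with 112 in the library labelled knockout 3. The 2 knockouts were far below every control, and the library labelled knockout 3 was above them all. Eef1a2 fell by 0.81 on the log2 scale (SE 0.10, limma adjusted p = 0.0037, n = 3 and 2), and it has no 75-base coding window in common with another gene. With all 6 libraries as labelled, its log2 fold change was -0.49 and did not pass (limma adjusted p = 0.77). That fit called 0 of all 13843 genes higher and 0 lower.

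Eef1a1 (ENSMUSG00000037742), the member with the highest level per length (a control mean of 4305 per kb of its main transcript, against 1048 in Rplp1, the next), stood at 6992, 7828 and 8350 in the controls, at 8284 and 7564 in the 2 knockouts, with 8243 in the library labelled knockout 3. Its groups overlapped (log2 0.04 ± 0.17, limma adjusted p = 0.93). The value of Eef1a2 was 1.40%, 1.41% and 1.12% of that of Eef1a1 in the controls, 0.645% and 0.794% in the 2 knockouts, and 1.36% in the library labelled knockout 3. Both knockouts lay below every control, with a log2 difference of -0.86 beside an SD of 0.19 over the controls. The exact two-sided permutation p was 0.2, the smallest that the 10 arrangements of 3 and 2 libraries allow, and 0.33 adjusted over the 5 ratios. Per length of the main transcript, Eef1a2 made up 1.13% of Eef1a1 on average in the controls, 0.555% and 0.683% in the 2 knockouts, and 1.17% in the library labelled knockout 3. In every library Eef1a1 was the higher of the 2 per length. Of the coding windows of Eef1a1, 51.9% occur in another gene. Of 19 annotated matches of Eef1a1, 1 was in the table, Gm6548, which held 0.11% of the sum of the pair. Adding it could not move the ratio, whose log2 difference stayed at -0.86. The part of read sharing in the Eef1a1 value was not tested.

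**Figure D5:**
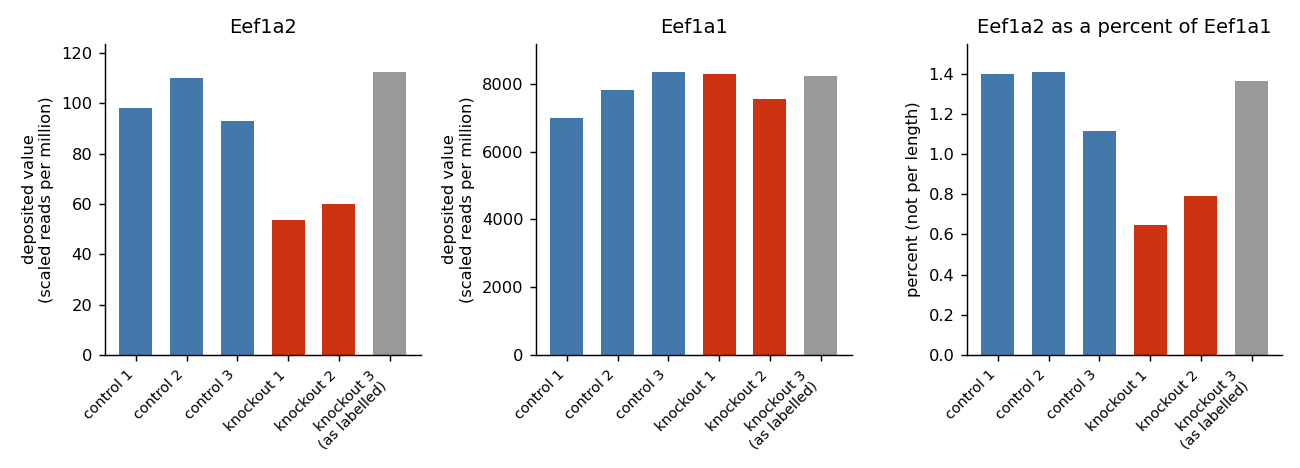
Bars give the deposited value of Eef1a2 (left), of Eef1a1 (middle) and their ratio in percent (right) in each library, 1 embryo per bar, with vertical axes from 0. Eef1a2 and the ratio are low in the 2 knockouts, at 0.645% and 0.794% against 1.12% to 1.41% in the controls, whereas Eef1a1 overlaps between groups.

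The 3 subunits of the exchange factor eEF1B gave small differences. Eef1b2, a catalytic subunit, was at 375, 439 and 454 in the controls and at 464 and 444 in the 2 knockouts. Eef1d, the other catalytic subunit, was at 154, 155 and 154 in the controls, at 170.2 and 163 in the 2 knockouts, with 151 in the library labelled knockout 3, without overlap between groups (log2 0.11 ± 0.06, limma adjusted p = 0.43). Eef1g, the structural subunit, was at 559, 622 and 616 in the controls and at 572 and 630.1 in the 2 knockouts. Eef1e1, which is named after these subunits but scaffolds the multi-tRNA synthetase complex, was at 28.1, 28.6 and 27.9 in the controls and at 33.3 and 29.3 in the 2 knockouts, also without overlap (log2 0.14 ± 0.10).

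Eef2, the translocation factor, overlapped between groups at 1800, 1932 and 1849 in the controls and 1739 and 1907 in the 2 knockouts (log2 -0.03 ± 0.10, limma adjusted p = 0.91). Eef2k, the kinase that phosphorylates eEF2 and slows elongation, was at 24.5, 23.2 and 24.4 in the controls, 29.8 and 27.3 in the 2 knockouts, with 26.4 in the library labelled knockout 3. Both knockouts were above all controls, as was the library labelled knockout 3, and the log2 fold change of 0.24 ± 0.10 did not pass (limma adjusted p = 0.25). The enzymes that methylate these factors overlapped between groups: Eef1akmt1 was at 14.8 ± 0.45 (SD, n = 3) in the controls and at 15.4 and 14.98 in the 2 knockouts. Eef1akmt2 was at 15.9 ± 1.77 and at 15.7 and 13.6, and Eef2kmt at 15.2 ± 1.74 and at 14.4 and 14.6. Eefsec, which brings in selenocysteine, was at 14.5 ± 1.95 (SD, n = 3) in the controls and at 12.3 and 15.3 in the 2 knockouts. Rps19bp1, a binding partner of Rps19 and no part of the ribosome, was at 16.3, 15.7 and 12.1 in the controls and at 14.1 and 14.4 in the 2 knockouts. Among the 12 elongation factor genes both knockouts lay above all controls in 3 (Eef1d, Eef1e1 and Eef2k) and below them in 1, Eef1a2, beside 18.1% and 17% of all genes.

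The annotated start sites were searched for the pyrimidine run described above. RefSeq promoters on GRCm38.p6 were matched to 71 of the 97 members by symbol. A run of at least 8 C or T within 30 bases of the annotated start was found in 36 of the 71 (50.7%), and in 22.9% of all 32851 promoters in the table. In the following windows of 30 bases, on the strand of the gene, the run is in capitals. They are shown for the 60S proteins Rpl13a and Rpl4 and for the 3 main elongation factors, to set Eef1a2 beside its abundant relatives. Only genes that meet the minimum of 8 are shown. Other genes named above fell short of it, with longest runs of 5 bases in Rps19, 5 in Rps16, 6 in Rps3, 7 in Rpsa and 5 in Eef2k.
Rpl13a: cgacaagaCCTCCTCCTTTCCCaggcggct
Rpl4: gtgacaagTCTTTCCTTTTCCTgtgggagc
Eef1a1: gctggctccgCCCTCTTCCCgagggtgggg
Eef2: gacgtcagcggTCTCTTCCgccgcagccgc
Eef1a2: ttttgcctgTTTTTCTCTCCTggtctgcgt
These windows are chr7:45128722-45128751, chr9:64173361-64173390, chr9:78481710-78481739, chr10:81176634-81176663 and chr2:181157014-181157043. The run begins 18 bases before the annotated start in Rpl4, 5 bases before it in Eef1a1 and 19 bases before it in Eef1a2. In Rpl13a it begins 2 bases after the annotated start, and in Eef2 14 bases after it. A match describes the letters and is not a measured start. The core letters of hypoxia response elements, ACGTG and GCGTG on either strand, were found in 25.4% and 54.9% of the 71 member promoters (250 bases before to 50 after the start), and in 19.6% and 32.4% of all promoters. Neither was in the promoter of Eef1a2 or of Eef1a1.

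A total of 7 members lie on chromosome 17, which carries the Cre allele at Nkx2-5: Rps10 (0.79 Mb away), Rpl10a (1.49), Rps2 (2.12), Rps28 (6.98), Rps18 (7.11), Rpl7l1 (19.9) and Rpl36 (29.8). Their median log2 fold change was 0.11, with 6 of 7 above 0 as deposited. In 4 of 7 both knockouts lay above all controls, beside 18.1% of all genes. Rps10, of the 40S head, was at 297, 315 and 308 in the controls and at 363 and 334 in the 2 knockouts (log2 0.18 ± 0.07, limma adjusted p = 0.24). The 97 members are spread over 20 chromosomes.

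Other parts of the translation machinery were counted from 8 lists of 238 measured genes. By limma, 11 were higher and 1 lower, beside 3.01% and 1.24% of all genes, with a median log2 fold change of 0.00. The higher count was 7 without control 1, 5 without control 2 and 7 without control 3. The shares of all genes in those fits are not given here, so the drop is not particular to these lists. With all 6 libraries 0 genes of these lists passed, where 0 of all 13843 genes did. With litter as a block, 13 were higher and 3 lower, beside 4.92% and 3.21% of all genes. Among 7 ribosomal proteins and ubiquitin fusions under other symbols, 1 was higher: Fau, which encodes the 40S protein eS30 fused to a ubiquitin-like protein, went from 64.2, 74.3 and 59.996 in the controls to 103 and 118 in the 2 knockouts, with 61.8 in the library labelled knockout 3 (log2 0.73 ± 0.11, limma adjusted p = 0.011). Rack1, a scaffold on the 40S subunit, stood at 679, 726 and 736 in the controls and at 813 and 788 in the 2 knockouts (log2 0.17 ± 0.08, limma adjusted p = 0.33). Of 11 elongation factors under other symbols 0 passed, and Eif5a, which relieves stalled ribosomes, was at 407, 422 and 385 in the controls and at 422 and 447 in the 2 knockouts.

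Of 47 initiation factors 1 was higher, Eif1b, a relative of the start codon selection factor eIF1, at 45.6, 51.2 and 51.5 in the controls and 79.1 and 71.6 in the 2 knockouts (log2 0.60 ± 0.09, limma adjusted p = 0.011). Of 80 ribosome biogenesis genes 2 were higher, the RNA methyltransferase Nsun2 (log2 0.55 ± 0.08) and the 60S assembly factor Sdad1 (0.37 ± 0.07), and the median of the list was 0.03. Both counts are shares near or below the 3.01% of all genes. Of 24 cytosolic aminoacyl-tRNA synthetase genes 2 were higher, beside 3.01% of all genes. These were the complex scaffold Aimp2 (0.77 ± 0.08) and the seryl-tRNA synthetase Sars (0.38 ± 0.07). Of 6 release and recycling factors 0 passed.

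Of 44 regulators of mTORC1 and of pyrimidine-run mRNAs, 3 were higher and 0 lower, beside 3.01% and 1.24% of all genes. Among the 44, 29 had log2 fold changes below 0, with a median of -0.09. In 13 of the 44 both knockouts lay below all controls and in 7 above them, beside 17% and 18.1% of all genes. With litter as a block 1 gene was lower, beside 3.21% of all genes. Ddit4, which restrains mTORC1, went from 20.4, 19.1 and 20.0 in the controls to 32.1 and 42.7 in the 2 knockouts (log2 0.87 ± 0.13, limma adjusted p = 0.012). Eif4ebp1, the repressor of cap-dependent initiation that mTORC1 inactivates, went from 96.1, 96.2 and 89.8 to 131 and 121 (0.41 ± 0.07), and Rraga, a GTPase that brings mTORC1 to lysosomes, rose by 0.43 ± 0.09. In the eIF2 alpha kinase and Atf4 branch, 2 of 21 genes were higher and 1 lower, beside 3.01% and 1.24% of all genes. Shmt2, a mitochondrial serine hydroxymethyltransferase, rose by 1.04 ± 0.09, the lipoprotein receptor Vldlr rose by 1.13 ± 0.16, and the folate enzyme Aldh1l2 fell by 1.19 (SE 0.12).

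Some marker lists held genes past the threshold in the same libraries, and others held 0. Of 5 epicardial markers 2 were higher by limma (Wt1 and Upk1b) and 4 with litter as a block, beside 3.01% and 4.92% of all genes. The summed value of the list was 240 to 322 in the controls, 436 and 393 in the 2 knockouts, with 286 in the library labelled knockout 3. Of 6 endothelial and endocardial markers 1 was higher (Emcn), with sums of 1148 to 1255 in the controls and 1364 and 1327 in the 2 knockouts. Of 3 atrial markers 1 was higher (Myl7), with sums of 2717 to 2910 in the controls and 3805 and 3265 in the 2 knockouts. Of 10 ventricular cardiomyocyte markers 0 passed, with a median log2 fold change of -0.17. In 3 of the 10 both knockouts lay below all controls, beside 17% of all genes. With litter as a block 1 of them was lower, Ryr2 (adjusted p = 0.034). The part of such differences in the ribosomal protein shift was not tested.

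From the skeletal muscle list 2 genes were measured, and they passed in opposite directions beside the fall of Eef1a2. Acta1, the skeletal actin that fetal heart also makes, rose from 192, 148 and 137 in the controls to 390 and 378 in the 2 knockouts, and the muscle creatine kinase Ckm fell from 33.8, 17.6 and 20.2 to 9.78 and 7.71 (limma adjusted p = 0.034). Neurons, another cell type that uses Eef1a2, were hardly represented: of 2 measured markers, Tubb3 was at most 4.53 and Elavl4 at most 3.36 in any library. Erythroid, mesenchymal and macrophage lists had 0 genes past the threshold without the block. With litter as a block Dcn was higher (adjusted p = 0.00085) in the mesenchymal list and 1 gene lower in the erythroid list. There were erythroid sums of 5319 to 11974 in the controls and of 5737 and 12794 in the 2 knockouts. The sums were 896 to 1396 in the controls and 1766 and 1077 in the 2 knockouts for the mesenchymal list, and 13.8 to 28.5 and 18.1 and 17.1 for the macrophage list.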

How the data were processed

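Polyadenylated RNA of single ventricles, 500 ng in each library, had been sequenced with single reads of 75 bases. Per the submitters' processing notes, the authors used CASAVA 1.8.2, cutadapt 1.3 and RSEM 1.2.3 with GRCm38. Release of the annotation, scaling and filter are not given in the sources used here. A normalized signal, 1 value per gene and library, was deposited for 13843 genes. In each library 100% of these values were whole multiples of 1 step within 0.01 reads, so whole reads (9067805 to 12592902 per library) had been divided by 1 factor per library, which equalled the effective library size that edgeR computes by TMM. RSEM divides reads that match several loci among them. Columns of no sample numbered 0.

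Identifiers were matched to GENCODE M21, which left 168 without a symbol. The main test was limma 3.58.1 (R 4.3.3), with a mean-variance trend, on log2(value + 1), which understates changes of low genes, with 5 libraries, no covariate and Benjamini-Hochberg adjustment over all genes. The library labelled knockout 3 was left out because of its Vhl value. Alternatives were pseudocounts of 0.5 and 5, a minimum mean of 5, other scalings, edgeR 4.0.16 and DESeq2 1.42.0 on recovered reads, all 6 libraries, litters 1 and 2 with a block for litter, which leaves 1 residual degree of freedom, each library left out, and sums with pseudogenes found by blastn 2.17.0. Numbers within the labels' litters pair the samples: deviations from group means correlated at 0.20 and 0.28 over genes in litters 1 and 2, and at 0.01 for libraries numbered 3, from different litters. Exact permutation tests used SciPy 1.17.1.

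The members, the 8 translation lists and the 9 marker lists were chosen with earlier results of these data known, so none gives independent support. Named members were those past the threshold, all Eef genes, the 5 ribosomal protein genes highest in mean, the 5 largest and 5 smallest fold changes, the paralog pairs, those on chromosome 17 and the 5 with the most pseudogene reads, with up to 4 genes from each other list. Others, such as those called by DESeq2 or with the block, were named after their values were seen.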

Additional observations from a re-analysis of the deposited data

Results flagged for a closer look

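The pseudogene Rps2-ps10 was measured but is no member, since its symbol holds -ps. Its signal in knockouts 1 and 2 was above that of the controls. Its log2 fold change in knockouts 1 and 2 over the controls was 6.35 ± 0.38 (SE, limma adjusted p = 0.00020), from 0, 17 and 0 reads in controls to 1208 and 1370 reads in knockouts 1 and 2, with 1 read in the library labelled knockout 3. The fold change depends on the pseudocount, since 2 controls were at 0. It was the only 1 of 47 matched pseudogenes past the threshold without a block for litter (with it, 2 were higher and 1 lower), and its parent Rps2 stood below all controls in the same 2 knockouts. Every gene in the table reached 1.01 in 3 libraries, and Rps2-ps10 did so only in these 2 knockouts and in control 2 (1.43). Its place in the table, and so its test, therefore rests on the knockouts where it was high.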

How the results depend on the processing

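The count of members higher, 0 in the comparison of 5 libraries, was 1 (Rps19) with a minimum mean of 5, 1 (Rps19) with scaling on other genes, 10 by DESeq2 and 4 with the replicate block for litters 1 and 2, and 0 with each library left out. The count lower, 1, was at least 1 with any control left out and 0 with all 6 libraries, a fit that called 0 of all 13843 genes. In the other translation lists the 11 higher and 1 lower became 0 and 0 with all 6 libraries, and the lower count became 3 with the block. Leaving out a control gave 5 to 7 higher and at least 1 lower, and the shares of all genes in those fits are not given here. The log2 difference of the Eef1a2 to Eef1a1 ratio, -0.86, was -0.55 with all 6 libraries and -1.01 to -0.71 with a library left out. The median of ribosomal protein genes stayed between 0.10 (all 6 libraries) and 0.18 (without knockout 2), with 0.13 when scaled to library totals and 0.15 when scaled on other genes. Of 615 values of 41 named members under alternatives, 579 kept their sign and side of the threshold, 26 not past it changed sign, 9 passed and 1, Eef1a2 with all 6 libraries, no longer did. With 1 knockout left, its spread is assumed to be that of the controls. Read sharing and the number of embryos, 3 against 2, limit what single genes show.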
